A study of Mus musculus with 6 samples.

Results

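The LIM-domain cytoskeletal genes described here are *Fhl1*, *Fhl2*, *Fhl3*, *Tes*, *Csrp1*, *Csrp2*, *Pdlim1*, *Pdlim3*, *Pdlim5* and *Pdlim7*. They were chosen by name from the 24421 rows of a matrix of gene levels, in which all 10 were found. The group was drawn up around *Fhl2* and *Tes*, which had been picked because of their values in these same libraries, so the lineage differences of the members are given as a description and were not tested. Bulk RNA sequencing was performed on GFP+ cells sorted from aortic tissue (the root and the ascending part) of mice aged 8 weeks on the 129S6/SvEv background. Every mouse carried the conditional *CAG-Sun1/sfGFP* tracer allele, which labels nuclei after Cre recombination. In 3 libraries the tracer was activated by *Mef2cSHF*, which marks descendants of the secondary heart field (SHF), and in the other 3 by *Wnt1-Cre2*, which marks descendants of the cardiac neural crest (CNC). The matrix labels every library WT (wild type), and the labels name no further allele and no treatment for either group. Both drivers mark where a cell came from and not what it has become, and the labels do not say whether a library holds cells of 1 mouse or of several.

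LIM domains are zinc-binding modules built of paired fingers that bind other proteins and not DNA. The genes of this group encode adaptors that dock on actin filaments, on the actin crosslinker α-actinin or on adhesions, and several of them also move to the nucleus and act with transcription factors. In the arterial wall they are known from the contractile apparatus and the adhesions of smooth muscle, through which a cell senses the stretch of the matrix. The four-and-a-half LIM proteins (*Fhl1* to *Fhl3*) consist of LIM domains alone. Testin (*Tes*) joins LIM domains to a PET domain and is found at focal adhesions. The cysteine- and glycine-rich proteins (*Csrp1*, *Csrp2*) are small actin-bundling proteins, and the PDZ and LIM proteins (*Pdlim1*, *Pdlim3*, *Pdlim5*, *Pdlim7*) hold a PDZ domain that binds α-actinin or tropomyosin.

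Levels are in TPM, the share of transcripts that a gene takes, a unit that is relative to transcript length and to the total of its library. TPM of each library sum to 1000000, so the depth behind a value is unknown and single values have no counting interval. The number of genes above 0 TPM ran from 9255 to 11858 among the libraries. The 10 smooth muscle markers summed to between 1297 and 3076 TPM and the 10 fibroblast markers to between 29121 and 51944 TPM, led by *Myl9*, *Acta2* and *Tagln* and by *Dcn*, *Col3a1* and *Col1a1*. The study calls these cells vascular smooth muscle cells, and sums of different lists do not compare cell types, since smooth muscle cells also make collagens and *Dcn*. Of 10 leukocyte markers, *Ptprc*, *Cd3e*, *Adgre1*, *Itgam* and *Fcer1g* were listed at 0 in every library, and the list, led by *Lyz2*, *Cd68* and *Tyrobp*, summed to at most 117 TPM. *Xist*, which is made from the inactive X chromosome, was above 0 in SHF replicates 2 and 3 only, and the Y-linked *Ddx3y* in the other 4 libraries only. In cells sorted in bulk, fewer cells of a type and less RNA per cell cannot be told apart.

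*Fhl2* was found in SHF libraries and *Tes* in CNC libraries, each with all 3 libraries of the other lineage listed at 0. *Fhl2*, which binds β-catenin, integrins and the serum response factor SRF and is abundant in the heart, lies on chromosome 1 of GRCm38 from 43123074 to 43196984 on the minus strand. SHF replicates 1, 2 and 3 held 9.69, 36.27 and 37.67 TPM of it, with a mean of 27.9 ± 15.8 TPM (SD, n = 3). The first replicate lay well below the other two. *Tes* lies on chromosome 6 from 17065149 to 17105828 on the plus strand. CNC replicates 1, 2 and 3 held 20.08, 16.65 and 16.26 TPM of it, with a mean of 17.7 ± 2.1 TPM (SD, n = 3). The 3 CNC libraries were therefore close to each other for *Tes*, whereas the SHF libraries were spread for *Fhl2*. The study filtered for exclusive expression in one lineage with a threshold of 5 TPM, which is read here as above 5 TPM in each of its libraries and 0 in each of the others. These values are what that filter selects on. Over all genes, 0.366% of the 5196 above 5 TPM in every SHF library and 0.271% of the 5528 above 5 TPM in every CNC library passed it. *Fhl3* came nearest to passing among the rest, with every SHF library above 5 TPM, but its CNC libraries were at 4.67, 2.51 and 5.42 TPM. With a threshold of 10 TPM *Fhl2* no longer passed, because of replicate 1, and *Tes* did. No fold change is given against a lineage listed at 0, and a transcript that was absent and one that was lost in amplification cannot be told apart at a value of 0. Exons of *Tes* overlap those of the antisense gene *Gm4876*, and the library kit does not keep the strand.

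**Figure D1:**
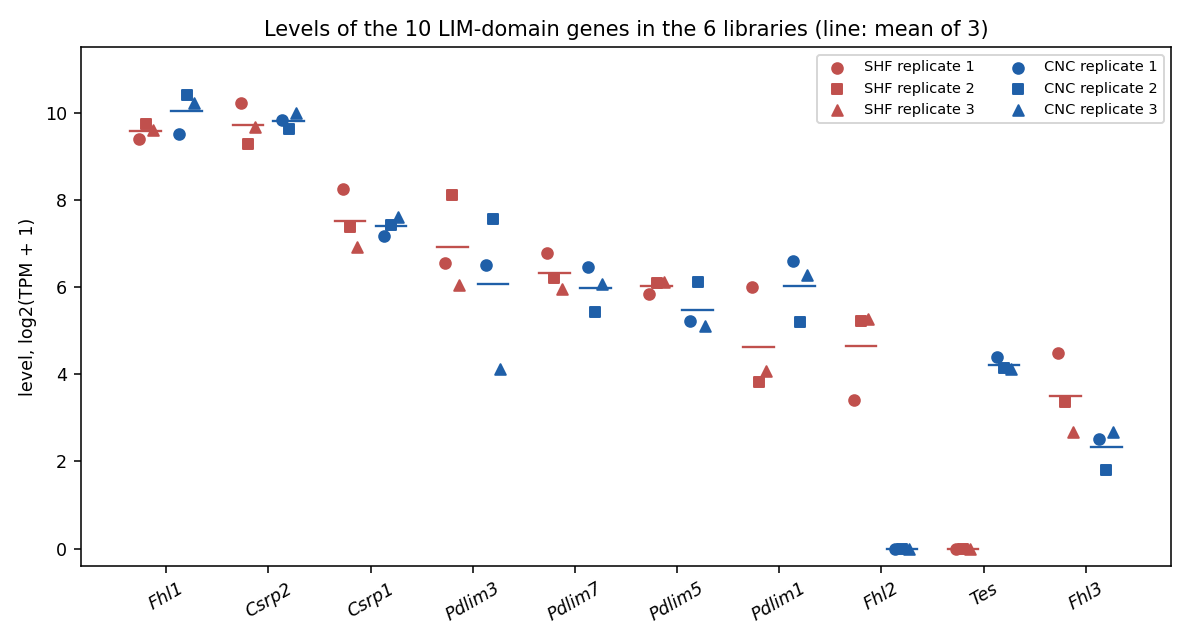
Level of each of the 10 genes in each library, on the log2(TPM + 1) scale, with SHF libraries in red, CNC libraries in blue, a marker shape for each replicate number and a line at the mean of 3. *Fhl1* and *Csrp2* sit highest in both lineages, *Fhl2* is at 0 in the 3 CNC libraries and *Tes* at 0 in the 3 SHF libraries, and the libraries of both lineages overlap for the other 8 genes.

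Sequences before annotated start sites of both genes are shown because these are the transcripts seen in 1 lineage each. RefSeq on GRCm38.p6 gives windows from 250 bases before to 50 bases after a start site for 9 of the 10 members, 13 windows in all, and *Csrp2* has none. The windows were searched on both strands for the CArG box, the motif bound by SRF, for TGANTCA, the AP-1 motif, and for GGAATG, the motif bound by TEAD factors. No window of a member held more than 1 of these motifs. A CArG box was found in 3 of the 13 windows, both windows of *Fhl2* and 1 of *Fhl1*, and in 1.63% of all 32851 windows. Windows of 1 gene are not independent, and a match is a stretch of letters and not a site shown to be bound. TGANTCA was found in 0 of the 13 windows and in 7.81% of all windows, and GGAATG in 1 of the 13, that of *Pdlim3*, and in 14.7% of all windows. In the sequences below the CArG box is in capitals. The first is the 250 bases before the internal start of *Fhl2* at chr1:43163962-43164211 (minus strand), whose box begins 31 bases before the start. The second is 30 bases around the box of the outer *Fhl2* start at chr1:43196838-43196867 (minus strand), which begins 96 bases before that start. In the GENCODE annotation the gene reaches further out than this RefSeq start, and 223 of the 250 bases before it are exonic. The third is 30 bases around the box of *Fhl1* at chrX:56779571-56779600 (plus strand), which begins 102 bases before the start, where 87 of the 250 bases are exonic. The last is the 250 bases before the start of *Tes* at chr6:17064899-17065148 (plus strand), in which none of the 3 motifs was found.
Fhl2 internal start: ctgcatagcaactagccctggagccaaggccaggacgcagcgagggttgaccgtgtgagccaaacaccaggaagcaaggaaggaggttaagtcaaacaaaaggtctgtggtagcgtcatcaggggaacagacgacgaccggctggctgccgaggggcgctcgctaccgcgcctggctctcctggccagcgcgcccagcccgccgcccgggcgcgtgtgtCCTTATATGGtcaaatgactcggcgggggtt
Fhl2 outer start: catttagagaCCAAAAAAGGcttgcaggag
Fhl1: ccttggatcaCCTAAAATGGttaagaattt
Tes: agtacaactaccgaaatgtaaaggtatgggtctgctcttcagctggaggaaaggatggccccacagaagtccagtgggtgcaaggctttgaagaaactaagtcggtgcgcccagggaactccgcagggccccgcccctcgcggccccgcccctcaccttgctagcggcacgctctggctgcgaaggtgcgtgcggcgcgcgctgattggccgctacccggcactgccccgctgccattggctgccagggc

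In TPM, summed markers of endothelial cells and, narrowly, of cardiomyocytes were also higher in every SHF library than in any CNC library. The 10 endothelial markers summed to 99.5, 622 and 520 TPM in SHF replicates 1, 2 and 3 and to 60.8, 73.6 and 24.3 TPM in the CNC replicates. SHF replicate 1 was thus the lowest of its lineage for this list as it was for *Fhl2*. Between 8 and 9 of the 10 were above 0 in an SHF library and between 3 and 4 in a CNC library. *Pecam1*, the most abundant of them and an adhesion molecule of endothelial junctions, was at 31.45, 147.51 and 141.59 TPM in SHF and 9.72, 37.86 and 19.81 TPM in CNC replicates. *Emcn*, *Cldn5*, *Cdh5*, *Tie1* and *Vwf* were listed at 0 in all CNC libraries. The list did not move as one. *Tek*, an endothelial receptor kinase, stood at 31.58, 0 and 57.25 TPM in SHF and 36.71, 23.1 and 1.11 TPM in CNC replicates, and both *Tek* and *Kdr* were listed at 0 in SHF replicate 2, the library with the highest endothelial sum. The 10 cardiomyocyte markers summed to 163, 94 and 179 TPM in SHF and to 92.1, 0.73 and 0 TPM in CNC replicates. The sums of SHF replicate 2 and CNC replicate 1 were close. Dividing them by their median-of-ratios factors, 1.062 and 0.974, reverses their order, so the lineages then overlap. *Tnnt2*, cardiac troponin T, led this list at 21.49, 87.44 and 60.93 TPM in SHF and 22.06, 0 and 0 TPM in CNC replicates, with *Pln* and *Myl3* next. *Pln*, phospholamban, stood at 14.77, 0 and 28.47 TPM in SHF and 54.2, 0 and 0 TPM in CNC replicates, so its highest library was of CNC. *Myl3*, a myosin light chain, stood at 44.86, 6.54 and 34.88 TPM in SHF replicates and, like *Myh6*, *Actc1* and *Fhl2*, was listed at 0 in all 3 CNC libraries. *Pln*, *Myh6* and *Actc1* were listed at 0 in SHF replicate 2, where *Fhl2* was at 36.27 TPM, and *Myl2* and *Myl7*, myosin light chains of the ventricle and the atrium, were listed at 0 in every library. The part of these cells in the level of *Fhl2* was not tested. Fibroblast markers went the other way, with sums of 31525, 29121 and 33436 TPM in SHF and 50274, 39401 and 51944 TPM in CNC replicates, higher in every CNC library as *Tes* was. Of the 10 genes 5 were higher in every CNC library and 5, *Dcn* among them, overlapped. Of the 10185 genes that reached 1 TPM in 3 or more libraries, 5.68% were higher in every CNC library. *Col1a1*, with means of 4314 and 10631 TPM in SHF and CNC, and *Col3a1*, with means of 7987 and 14310 TPM, made up most of the difference in the sum. The 8 Schwann cell markers summed to 15.3, 1.5 and 16 TPM in SHF and 21.4, 94.6 and 34.1 TPM in CNC replicates, with *S100b* and *Cdh19* among them and *Foxd3* listed at 0 in every library. Their part in the level of *Tes* was not tested. From single cells, the study names *Tes* among the transcripts that define its smooth muscle clusters 1 and 2. By in situ hybridization it places *Tes* toward the distal ascending aorta. In SHF replicate 1, which like the CNC libraries had *Ddx3y* and no *Xist*, *Fhl2* was above 0 and *Tes* was not.

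**Figure D2:**
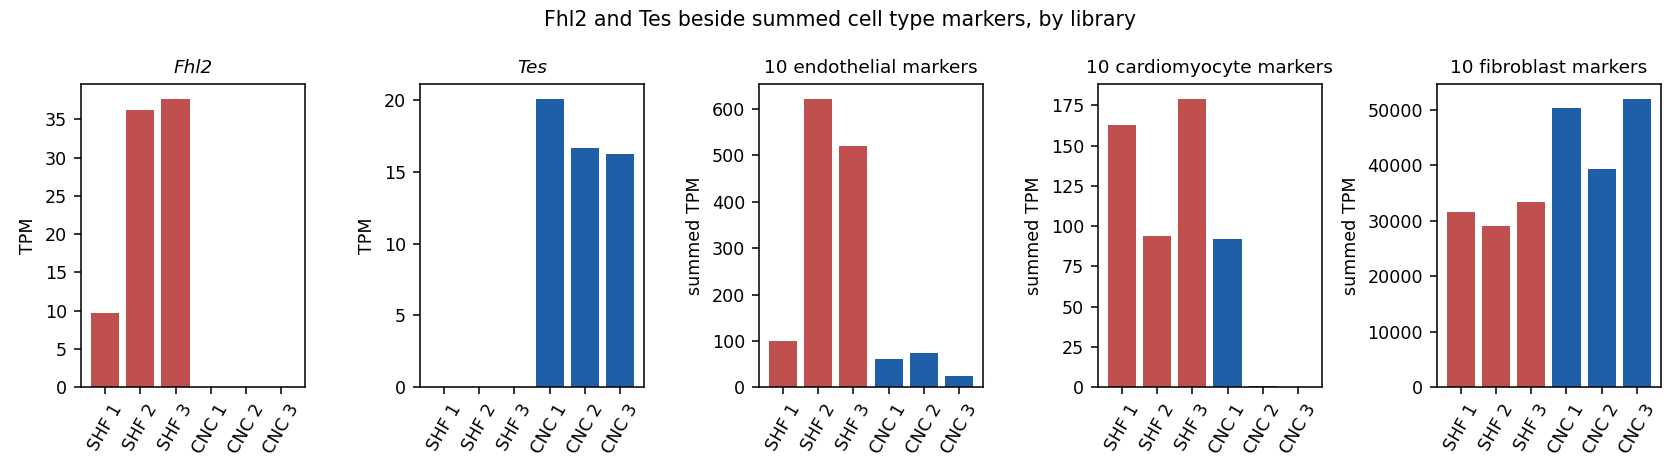
*Fhl2*, *Tes* and the summed levels of 10 endothelial, 10 cardiomyocyte and 10 fibroblast markers, in TPM, as a bar for each library (red SHF, blue CNC). *Fhl2* and the endothelial sum are lowest among SHF libraries in replicate 1, and the fibroblast sum is from 29121 to 33436 TPM in SHF and from 39401 to 51944 TPM in CNC libraries.

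By a rule of likeness, Pearson's r of log2(TPM + 1) over the 6 libraries, the genes whose pattern was most like that of *Fhl2* were *2610305D13Rik*, *Cdh5* and *Fabp3*, with r of 0.998, 0.998 and 0.997. *Cdh5*, the cadherin of endothelial junctions, reached 5.94, 17.17 and 24.64 TPM in SHF replicates, and *Fabp3*, the fatty acid binding protein of heart muscle, reached 17.34, 84.86 and 70.78 TPM. Both were low in replicate 1, as *Fhl2* was, which follows from choosing them by likeness to it. The genes most like *Tes* were *Abhd3*, *Zfp707* and *Zbtb40*, with r of 0.999, 0.998 and 0.997, and all 3 were listed at 0 in every SHF library. *Zfp707* reached 15.81, 18.31 and 15.48 TPM in CNC replicates. Values of 0 in a whole lineage make such coefficients high, and they describe these 6 libraries only.

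The 10 genes spanned a wide range of levels, from *Fhl1* and *Csrp2*, at 617.49 TPM or more in every library, to *Fhl2*, *Tes* and *Fhl3*, at 37.67 TPM or less. Summed over the group they made up between 0.197% and 0.266% of a library. The sum was 2533, 2112 and 1968 TPM in SHF replicates 1, 2 and 3, with a mean of 2204 ± 293 TPM (SD, n = 3). In the CNC replicates it was 2116, 2664 and 2634 TPM, with a mean of 2471 ± 308 TPM (SD, n = 3), so the lineages overlapped and the difference of -267 TPM (SHF minus CNC) was less than the pooled SD of 301 TPM. Both depend on single libraries. Without SHF replicate 1 the difference was -431 TPM, and without CNC replicate 1 it was -445 TPM, and in each case the sums of the remaining libraries did not overlap. Without SHF replicate 3, CNC replicate 2 or CNC replicate 3 it shrank to -149, -171 and -186 TPM. After median-of-ratios rescaling it was -392 TPM. *Fhl1* and *Csrp2* together held between 69.6% and 84.5% of the sum in a library. By mean TPM over all libraries *Fhl1* ranked 163 and *Csrp2* 173 of the 24421 rows, *Csrp1* 842, *Pdlim3* 1268, *Pdlim7* 2023, *Pdlim5* 2558, *Pdlim1* 2767, *Fhl2* 6437, *Tes* 7802 and *Fhl3* 8032. In SHF the order of the means was *Csrp2*, *Fhl1*, *Csrp1*, *Pdlim3*, *Pdlim7*, *Pdlim5*, *Pdlim1*, *Fhl2*, *Fhl3* and *Tes*. Only 2 steps of this order separated the libraries without overlap, from *Fhl1* down to *Csrp1* and from *Fhl3* down to *Tes*. In CNC the order was *Fhl1*, *Csrp2*, *Csrp1*, *Pdlim3*, *Pdlim1*, *Pdlim7*, *Pdlim5*, *Tes*, *Fhl3* and *Fhl2*, and 4 steps separated the libraries, from *Csrp2* to *Csrp1*, from *Pdlim5* to *Tes*, from *Tes* to *Fhl3* and from *Fhl3* to *Fhl2*. The libraries of all other neighbours in these orders overlapped.

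Among the four-and-a-half LIM genes *Fhl1* was dominant in both lineages, and *Fhl2* was above 0 in SHF alone. *Fhl1*, known from skeletal and cardiac muscle, where mutations cause myopathies, lies on chromosome X from 56731787 to 56793346. Its level was 677.17, 852.45 and 779.21 TPM across SHF replicates and 732.58, 1347.98 and 1203.97 TPM across CNC replicates. CNC replicates 2 and 3 were above every SHF library, while CNC replicate 1 lay among them. The means were 770 ± 88 and 1095 ± 322 TPM (SD, n = 3 each). The 2 SHF libraries with *Xist* had the higher *Fhl1* of that lineage, and all 3 CNC libraries lacked *Xist*. *Fhl1* held 95.6%, 94.9% and 94.8% of the subfamily sum in SHF and 99.4%, 99.8% and 99.6% in CNC replicates. *Fhl2* held 1.37%, 4.04% and 4.58% of it in the SHF replicates. *Fhl3*, on chromosome 4 from 124700701 to 124708611, was the least abundant member that was found in both lineages. Its SHF replicates held 21.58, 9.34 and 5.34 TPM, and the lineages met at its lowest SHF library, which was just under the highest CNC library, at 5.42 TPM. In SHF replicate 1 *Fhl3* exceeded *Fhl2*, and in SHF replicates 2 and 3 *Fhl2* exceeded *Fhl3*. *Fhl4* and *Fhl5*, the remaining genes of the subfamily, were listed at 0 in all 6 libraries.

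The cysteine- and glycine-rich genes overlapped between the lineages. *Csrp2*, also called smooth muscle LIM protein and made by arterial smooth muscle, lies on chromosome 10 from 110919789 to 110939622. Its level was 1201.27, 617.49 and 814.74 TPM across SHF replicates and 907.74, 791.81 and 1021.89 TPM across CNC replicates, so the CNC values lay inside the SHF range. *Csrp1*, on chromosome 1 from 135720061 to 135752232, is likewise expressed in smooth muscle. It measured 301.95, 166.35 and 120.63 TPM in SHF and 142.88, 171.77 and 194.18 TPM in CNC replicates. SHF replicate 1 was the highest library for both genes and for the sum of the 10 smooth muscle markers, at 3076 TPM, against 1297 to 1999 TPM in the other 5 libraries. The part of smooth muscle cells in the level of both genes was not tested. *Csrp2* exceeded *Csrp1* in 6 of 6 libraries, by 3.98, 3.71 and 6.75 times in SHF and 6.35, 4.61 and 5.26 times in CNC replicates. *Csrp3*, the paralogue of striated muscle, was at 52.37 TPM in SHF replicate 2 and listed at 0 in the other 5 libraries.

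The PDZ and LIM genes include the 2 members with the widest spread between replicates, *Pdlim3* and *Pdlim1*. *Pdlim3*, the α-actinin-associated LIM protein ALP of muscle, lies on chromosome 8 from 45885461 to 45919548. It measured 93.07, 275.94 and 65.58 TPM in SHF and 89.59, 187.04 and 16.5 TPM in CNC replicates, so that its highest CNC library was 11.3 times its lowest. *Pdlim1*, also called CLP36, on chromosome 19 from 40221173 to 40271842, measured 63.54, 13.21 and 15.73 TPM in SHF and 95.3, 35.81 and 76.03 TPM in CNC replicates. SHF replicate 1 lay among the CNC libraries for *Pdlim1*, and the other 2 SHF libraries lay below all of them. In each lineage the library with the highest *Pdlim3*, replicate 2, had the lowest *Pdlim1*. *Pdlim1* held from 3.07% to 19.8% of the subfamily sum in SHF and from 10.7% to 39.5% in CNC libraries, and *Pdlim3* from 29% to 64.2% and from 8.58% to 56.1%. Transcripts of *Pdlim1* share 9.82% of their distinct 50-base stretches with 514 other genes, the processed pseudogene *Gm5864* first among them, and reads from these could not be assigned by sequence alone. For *Tes* this was 2.34% of the stretches, for *Fhl3* 4.63%, and no 50-base stretch was shared between members. *Pdlim5*, also called ENH, ties protein kinase C to the cytoskeleton and lies on chromosome 3 from 142239590 to 142395696. It measured 56.12, 67.73 and 67.91 TPM in SHF and 36.05, 68.82 and 33.53 TPM in CNC replicates. CNC replicate 2 was the highest library of all for *Pdlim5*, and the other 2 CNC libraries were below every SHF library. *Pdlim7*, also called enigma, on chromosome 13 from 55495795 to 55513676, measured 108.32, 73.1 and 61.53 TPM in SHF and 87.14, 41.97 and 66.27 TPM in CNC replicates. SHF replicate 1 was above every CNC library and CNC replicate 2 below every SHF library, and the other 4 libraries overlapped.

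**Figure D3:**
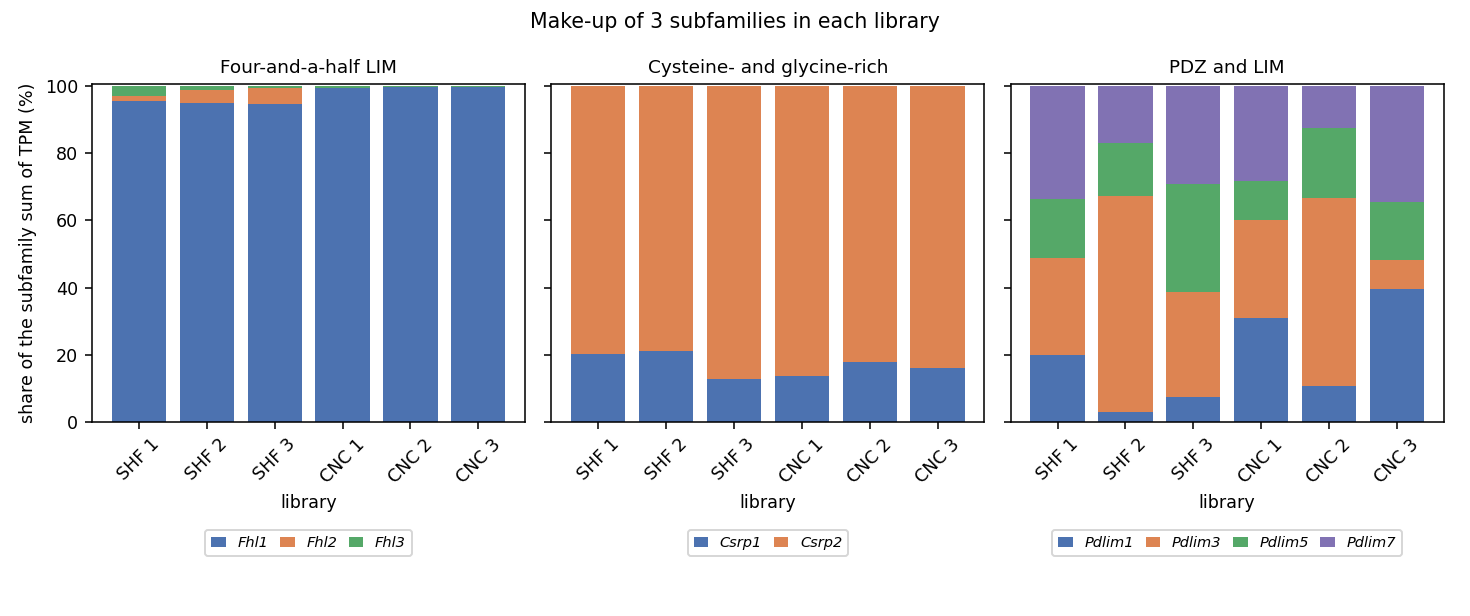
Share of each gene in the summed TPM of its subfamily (vertical axis, percent), as a stacked bar for each library. *Fhl1* fills at least 94.8% of the first panel, *Csrp2* from 78.8% to 87.1% of the second, and the shares of *Pdlim1* and *Pdlim3* in the third vary between replicates of 1 lineage.

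Differences between lineages were taken from a limma fit of log2(TPM + 1) over the 10185 genes that reached 1 TPM in 3 or more libraries, as SHF minus CNC. All 10 members passed this filter, *Fhl2* and *Tes* only through the lineage in which they were found. The fit held no term for sex. By *Xist* and *Ddx3y* the SHF libraries were of mixed sex and the CNC libraries were not. Lineage and sex therefore cannot be fully told apart in these estimates. In the fit 0 genes, 0% of the 10185, passed a Benjamini-Hochberg adjusted p of 0.05, and the unadjusted p of 597 was below that value. For the 8 members above 0 in both lineages the log2 fold change had a median of 0.22, against 0.02 over all genes tested, and 5 were above 0 and 3 below. Without SHF replicate 1 the median was -0.07. All 8 of the 95% intervals held 0 with 6 libraries. *Fhl3* had the largest estimate above 0, at 1.18 ± 1.22 (SE), with an interval from -1.5 to 3.85. *Pdlim1* had the lowest estimate, at -1.38 ± 0.76 (SE), with an interval from -3.06 to 0.29. Without SHF replicate 1 the estimate for *Pdlim1* was -2.07 and its interval, from -3.8 to -0.35, did not hold 0. The estimate for *Fhl1* was -0.47 ± 0.29 (SE), with an interval from -1.1 to 0.16. Without CNC replicate 1 the estimate for *Fhl1* was -0.73 and its interval, from -1.38 to -0.09, did not hold 0. The narrowest bounds were those of the abundant genes, and for *Csrp2* the interval ran from -0.74 to 0.55 around -0.09. For *Csrp1* it ran from -0.79 to 1.02 and for *Pdlim7* from -0.8 to 1.46. For *Pdlim5* it ran from -0.68 to 1.75 and for *Pdlim3* from -0.98 to 2.67. The standard deviation of replicates around their lineage mean had a median of 0.48 on this scale over these 8 genes and of 1.19 over all genes tested. That of *Pdlim3* was 1.45 and that of *Fhl1* 0.35. Libraries of the lineages overlapped for all 8 of these members. Those of *Fhl2* and *Tes* did not, which follows from how both genes were picked and is not a result. Of all genes tested 11.8% did not overlap, 6.11% higher in SHF and 5.68% higher in CNC.

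**Figure D4:**
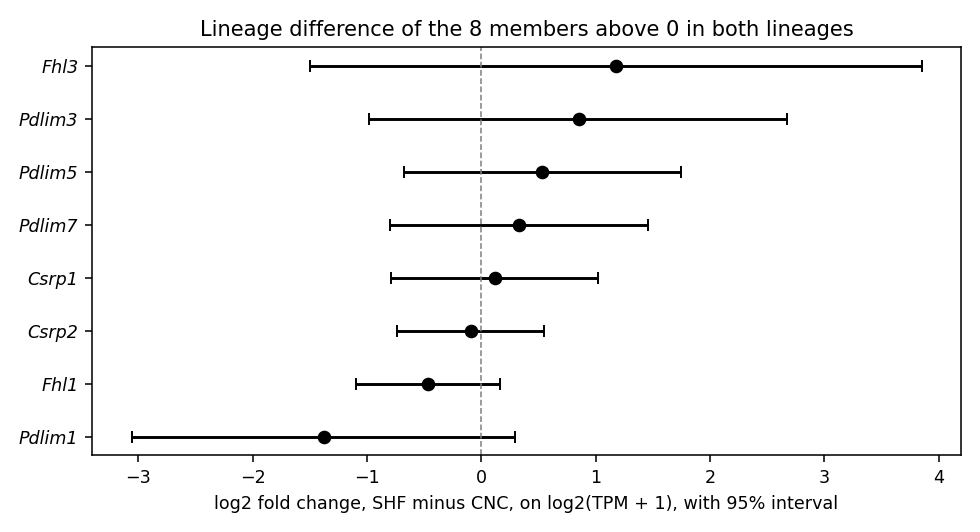
Log2 fold change of the 8 members above 0 in both lineages, SHF minus CNC on the log2(TPM + 1) scale (horizontal axis), as a point with its 95% interval. All 8 intervals hold 0 (dashed line), and those of *Fhl3* and *Pdlim3* are the widest of the 8.

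The other LIM proteins of the cytoskeleton were examined beside the members. Of 41 such genes 30 were tested, and 23 were above 0 in all 6 libraries. In limma 0 of the 30 had an adjusted p under 0.05, and 2 had an unadjusted p under 0.05. The median log2 fold change was 0.15. *Crip1*, a small LIM protein, was more abundant than the 10 members together in every library, by 1.1 to 1.86 times, at 3483 ± 1074 TPM in SHF and 3174 ± 502 TPM in CNC libraries (SD, n = 3 each). *Crip2*, its paralogue in vessels and heart, measured 639.8, 1020.77 and 899.25 TPM in SHF and 479.81, 513.81 and 317.95 TPM in CNC replicates. Every SHF library was above every CNC library, with a log2 fold change of 0.97 ± 0.3 (SE) and an adjusted p of 0.63 in limma. *Zyx*, zyxin, which moves from adhesions to strained actin fibers, measured 252.27, 190.18 and 245.45 TPM in SHF and 388.88, 293.76 and 353.96 TPM in CNC replicates. Every CNC library was above every SHF library, with a log2 fold change of -0.59 ± 0.31 (SE) and an adjusted p of 0.874 in limma. *Lpp*, a relative of zyxin, went the other way, at 42.96, 42.89 and 43.41 TPM in SHF and 16.35, 23.54 and 28.8 TPM in CNC replicates. *Fblim1*, which links filamin to adhesions, and *Lasp1*, an actin-binding protein, also had every SHF library above every CNC library. In all, 5 of the 30 genes had lineages that did not overlap, 4 higher in SHF and 1 in CNC, or 16.7% against 11.8% of all genes tested. Among estimates that did not pass, the highest was that of *Ablim3*, which ran from 0 to 46.74 TPM, and the lowest that of *Lims2*, a partner of integrin-linked kinase, at 29.1, 0 and 23.01 TPM in SHF and 157.68, 122.65 and 20.61 TPM in CNC replicates. *Mical2*, an actin-oxidizing enzyme, had an estimate of 1.18 and the kinase *Limk1*, which phosphorylates cofilin, one of -1.72.

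Of 25 actin and adhesion partners of the LIM proteins 23 were tested, and 7 of the 23 had lineages that did not overlap, 6 higher in SHF and 1 in CNC. In limma 0 of the 23 had an adjusted p under 0.05, and 1, *Tpm1*, had an unadjusted p under 0.05. *Tpm1*, tropomyosin 1, measured 619.9, 809.7 and 524.47 TPM in SHF and 284.24, 372.21 and 387.06 TPM in CNC replicates, with an estimate of 0.89 ± 0.29 (SE) and an adjusted p of 0.688 in limma. *Ilk*, integrin-linked kinase, measured 388.63, 404.31 and 391.74 TPM in SHF and 335.79, 232.86 and 261.16 TPM in CNC replicates. *Tln1*, talin, which ties integrins to actin, measured 62.69, 76.94 and 75.9 TPM in SHF and 33.5, 37.94 and 30.71 TPM in CNC replicates. The libraries of a lineage lay close together for both genes. *Palld* and *Rock1* were higher in every SHF library, and the kinase *Rock2* was higher in every CNC library. *Rhoa*, the most abundant gene of the list, was at 529 ± 145 and 609 ± 78.3 TPM (SD, n = 3 each) and *Tpm4* at 484 ± 233 and 427 ± 68 TPM (SD, n = 3 each), with overlap. *Vasp* and *Actn2* had the highest estimates, at 2.15 ± 1.32 and 1.74 ± 1.48 (SE), and *Flnc* the lowest, at -2.22 ± 1.41 (SE), each with a library listed at 0. The median log2 fold change of the 23 was 0.32. The share without overlap was 30.4%, against 11.8% of all genes tested, and it was not tested whether the list stands apart.

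**Figure D5:**
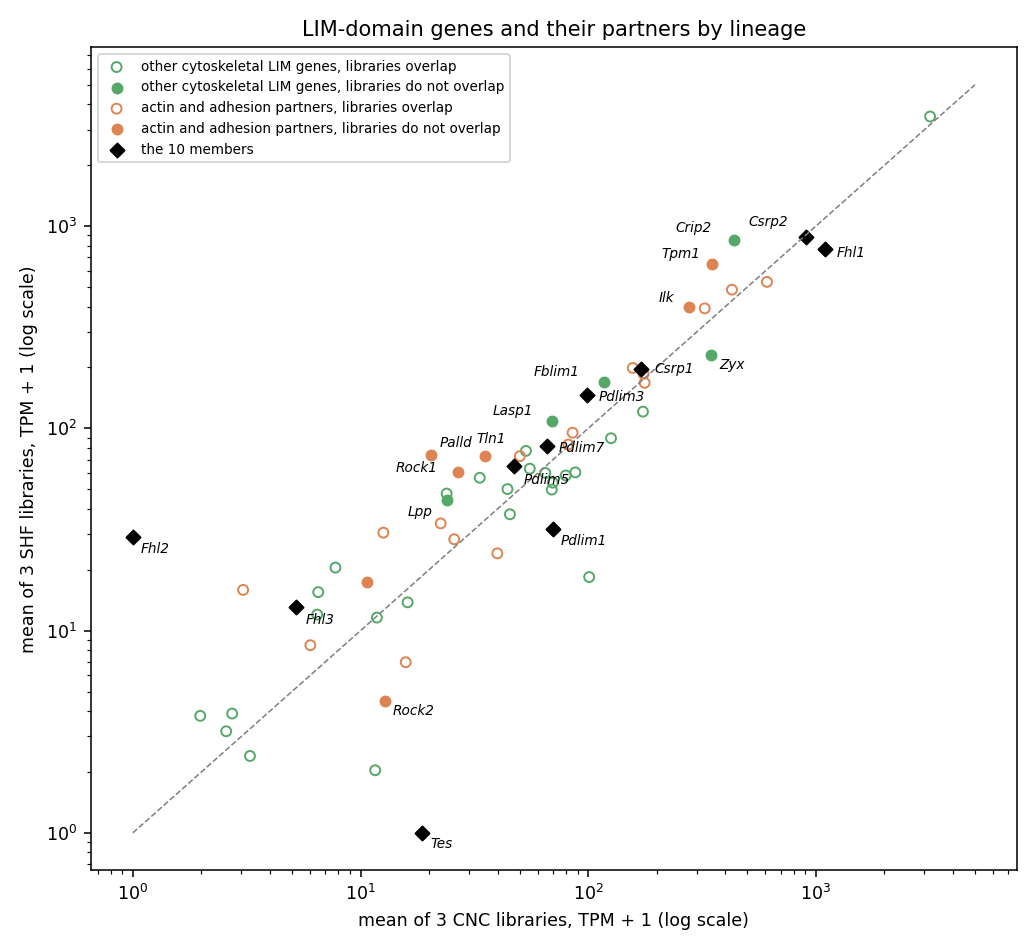
Mean TPM + 1 of 3 CNC libraries (horizontal, log scale) against that of 3 SHF libraries (vertical, log scale) for the 10 members (black), 30 other cytoskeletal LIM genes (green) and 23 actin and adhesion partners (orange), with filled circles where the libraries of the lineages did not overlap. *Fhl2* and *Tes* sit at the value of 1 (0 TPM) on 1 axis each, and 10 of the 12 filled circles, green and orange, lie above the line of equal level (dashed).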

How the data were processed

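Sorted cells were lysed in TriZol, and RNA was amplified by the SmartSeq2 protocol and made into Nextera XT libraries, without molecular identifiers. The authors aligned reads to mm10 with Bowtie2 inside RSEM (version 1.2.25) and deposited TPM per gene. The annotation behind the genes is not given in the sources used here. Columns were matched to 3 SHF and 3 CNC libraries through the library codes in the labels. The study calls its replicates biological, but the labels do not say how many mice each holds. The p-values set a lineage difference against the spread between these libraries, which may be partly technical.

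From the deposited TPM, log2(TPM + 1) was fitted with limma 3.58.1 in R 4.3.3 (eBayes with a trend), two-sided, over all genes that passed the filter, with Benjamini-Hochberg adjustment. On this scale the fold change of a low gene comes out too small. For single genes, the smallest p that exact permutation of these libraries allows is 0.1, two-sided, so none was run. Positions and transcripts are from GENCODE M21 on GRCm38, which is mm10. Start-site windows are from RefSeq on GRCm38.p6.

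The members and lists were chosen with earlier results of these data known. The genes named are all members, then in each list the 3 highest by mean TPM and, outside the markers, the 2 with the largest estimate in each direction, the markers listed at 0 in every library, and the 3 nearest in pattern to *Fhl2* and *Tes*. *Cdh5*, *Tie1*, *Vwf*, *Tek*, *Kdr*, *Myh6*, *Actc1*, *Csrp3*, *Srf*, *Myocd*, *Isl1*, *Isl2*, *Lmo3*, *Lmx1b*, *Fhl4*, *Fhl5*, *Lpp*, *Fblim1*, *Lasp1*, *Ilk*, *Tln1*, *Palld* and *Rock1* were named after their values were seen. Some genes that this rule names are not reported here. Alternatives were no filter, a mean of at least 10 TPM, pseudocounts of 0.1 and 5, median-of-ratios and quantile scaling, eBayes without a trend, a replicate block and each library left out. Python 3.11.15, pandas 2.3.3 and matplotlib 3.10.9 were used for tables and plots.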

Additional observations from a re-analysis of the deposited data

How the results depend on the processing

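The count of 0 genes past the threshold in limma became 1 with a pseudocount of 5, and stayed at 0 under the other alternatives. The count among the other LIM and partner genes was 0 under each, with the smallest adjusted p between 0.518 and 0.969. With a threshold of 10 TPM the number of members exclusive to a lineage was 1 in place of 2, and it was 2 when the mean of the expressing lineage had to pass 5 TPM or the other lineage had to be under 1 TPM. The number of members without overlap, 2, ranged from 2 to 4 over the counts that each left out 1 library. *Fhl2* and *Tes* are in each of these counts because of how they were picked. The 4 came without CNC replicate 2 and added *Pdlim1* and *Pdlim5*, when 20.9% of all genes tested did not overlap. Leaving out a library removes a requirement. Of 111 estimates of single members under the alternatives, all 111 moved by less than 1 SD of the replicates. Leaving out 1 library of a lineage cannot move an estimate by that much, and the filters, the trend and the block do not change it. That count therefore says nothing about stability. Of the 111, 2 had an interval without 0 (*Pdlim1* without SHF replicate 1 and *Fhl1* without CNC replicate 1) and 5 differed in sign from those reported. These were *Csrp2* under quantile normalization (0.01) and with SHF replicate 2 left out (0.13), *Csrp1* without SHF replicate 1 (-0.25) or CNC replicate 1 (-0.0), and *Pdlim3* without CNC replicate 3 (-0.12). The median over the members was lowest, -0.07, without SHF replicate 1 and highest, 0.45, without SHF replicate 3. Replicate numbers are shared by the lineages, but the deviations of libraries with the same number correlated at -0.011, -0.004 and -0.011, so the numbers did not pair them, and with a replicate block 0 genes passed and the member median was 0.22. Unknown depth limits what a 0 means.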

Other observations

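LIM proteins of the nucleus and the SRF axis stood outside the comparisons above. Of 13 nuclear LIM genes 6 were listed at 0 in every library, among them *Lmo3*, *Isl2* and *Lmx1b*, and *Isl1*, which marks secondary heart field progenitors in the embryo, was at 1.86 TPM in SHF replicate 1, at 0.74 TPM in CNC replicate 2 and listed at 0 in the other 4 libraries. *Lmo4*, a small adaptor of transcription factors, was at 84.82, 238.6 and 74.09 TPM in SHF and at 175.38, 144.54 and 100.63 TPM in CNC replicates, with overlap. *Lmo2* ran from 0 to 52.49 TPM. *Ldb2*, which bridges LIM factors, was at 8.99, 8.37 and 5.5 TPM in SHF and at 0, 0 and 4.91 TPM in CNC replicates, without overlap, with an estimate of 2.23 ± 1.17 (SE) and an adjusted p of 0.874 in limma. *Ldb1* ran from 0.18 to 20 TPM. Of the 4 nuclear LIM genes tested 0 passed the threshold in limma, and 0 had an unadjusted p under 0.05.

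Of the 7 genes of the SRF axis found in the matrix all 7 were tested, 0 passed in limma and 0 had an unadjusted p under 0.05. *Srf* itself was at most 7.13 TPM with 0 in SHF replicate 2 and in CNC replicate 1. *Myocd*, the cofactor of SRF in smooth muscle, ran from 0 to 7.52 TPM. *Elk4*, a partner of SRF, was at 33.83, 63.99 and 13.31 TPM in SHF and 9.95, 29.52 and 10.92 TPM in CNC replicates. *Elk3* and *Mkl2*, a partner and a cofactor of SRF, had the highest estimates, at 1.35 ± 1.23 and 1.03 ± 1.07 (SE). The median log2 fold change was 0.88 over the 7 genes, against 0.02 over all genes tested.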
